A study of Mus musculus with 6 samples.

Results

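Expression of 8 genes of insulin and insulin-like growth factor (IGF) signalling was described across the cell classes of the aged mouse hippocampus, after sevoflurane and after oxygen alone. The genes are Igf1, Igf1r, Igf2r, Insr, Irs1, Irs2, Tbc1d4 and Igfbp5, 8 of the 32285 genes counted, and all 8 were found by symbol. They were chosen with the treatment values in view, since Igf1r was known to be lower in most neuron classes and Tbc1d4 lower in oligodendrocytes. Their differences between treatments are therefore given as a description, and no test of them is used as evidence.

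Insulin and IGF1 bind related receptor tyrosine kinases, encoded by Insr and Igf1r, which phosphorylate the docking proteins IRS1 and IRS2. The docking proteins recruit phosphoinositide 3-kinase, and through it the kinase AKT acts on growth, on FOXO transcription factors and on glucose transport. Igf2r encodes a receptor that takes IGF2 and lysosomal enzymes into the cell and has no kinase of its own. Igfbp5 encodes a secreted protein that binds IGFs. Tbc1d4, also called AS160, encodes a Rab GTPase-activating protein that holds back glucose transporter vesicles until AKT phosphorylates it. In brain, IGF1 is known as a growth and survival factor, and insulin and IGF1 receptors of vessel walls take part in carrying the hormones into the tissue.

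Single nuclei of frozen hippocampi were sequenced in 6 libraries from mice of 18 to 20 months. The sevoflurane group (3 libraries) breathed 2% sevoflurane, an inhaled anaesthetic, in 60% oxygen at 1 L/min for 6 h. The oxygen group (3 libraries) breathed 60% oxygen alone at the same flow for 6 h. The labels give no strain, genotype or number of animals for a library, so the spread between libraries may be partly technical. The deposited libraries held 56334621 to 72636984 unique molecular identifiers (UMIs, counted RNA molecules), and the median nucleus of a library held 4687 to 6090.

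After filtering, 52017 nuclei remained, and 12 classes named from marker genes held at least 20 nuclei in every library, 43050 nuclei in all. Of these, 6 are neuron classes (dentate granule, CA1, CA2 and CA3 pyramidal, subicular or cortical excitatory, and inhibitory) and 6 are not (oligodendrocyte, oligodendrocyte precursor, astrocyte, microglia, endothelial and ependymal). The names rest on markers alone, and each class is meant as nuclei with that marker pattern. The labelled sex did not match the sex-linked genes in 3 of the 6 libraries: only sevoflurane 1, labelled male, had a female pattern. Libraries shared 331 of 53492 distinct barcodes, 15 to 33 in any pair of libraries. Choroid plexus-like nuclei numbered 60, 16 and 99 in the oxygen libraries and 0 in the sevoflurane libraries, and the summed choroid plexus markers were lower after sevoflurane in all 12 classes.

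Each gene had its own distribution over the classes, which the choice of genes did not use. Levels are CPM (counts scaled to a common normalised library size), with the standard deviation (SD) over all 6 libraries, and each order is within 1 gene. Igf1r stood highest in endothelial nuclei, at 2660 ± 847 CPM (SD, n = 6), and its lowest endothelial library, at 1711 CPM, lay above the highest ependymal library, at 541.5 CPM. The following classes overlapped each other in turn: ependymal (479.7 ± 39.6), CA2 (433 ± 95.6), microglia (413 ± 50.4) and astrocyte (376 ± 60.2 CPM). Lower values were found in oligodendrocyte (255 ± 48.1), CA3 (245 ± 32.2), oligodendrocyte precursor (225 ± 21.8) and dentate granule nuclei (204.5 ± 29.6 CPM). The subicular or cortical (193 ± 28.1), inhibitory (146 ± 26.6) and CA1 classes (116 ± 14.4 CPM) came last. Neighbours in this order overlapped in their ranges from the ependymal class down. When each nucleus was thinned to 2000 UMIs, Igf1r was seen in 93.1% of endothelial nuclei (86.6 to 97.5% over the libraries) and in 19.2% of CA1 nuclei.

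Tbc1d4 and Insr shared the endothelial maximum. Tbc1d4 reached 999 ± 362 CPM (SD, n = 6) in endothelial nuclei, and its lowest library there (484 CPM) lay above its highest in microglia (125 CPM), the class next in order at 97.5 ± 25.9 CPM. The levels were lowest, and overlapped, in dentate granule (5.69 ± 2.39 CPM), subicular or cortical and CA1 nuclei. With oxygen alone the CA1 mean (6.89 CPM) and the subicular or cortical mean (7.02 CPM) lay below the dentate granule mean (7.36 CPM). Insr was spread more evenly, from 386 ± 61.4 CPM in endothelial nuclei and 219 ± 12.7 CPM in microglia to 99.1 ± 7.76 CPM in CA1 nuclei, and only the step from the endothelial class to the next had no overlap of libraries.

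The ependymal class, which lines the ventricles, had the highest levels of Igf2r and Irs1. Igf2r stood at 93.5 ± 9.44 CPM there (SD, n = 6), above all libraries of the endothelial class (38.5 ± 18.25 CPM). Irs1 stood at 158 ± 18.4 CPM, above all libraries of the astrocyte class (58.4 ± 7.19 CPM). Irs2 averaged 160.2 CPM in ependymal nuclei but ranged from 60.9 to 344 CPM, so that it overlapped oligodendrocytes at 79.8 ± 6.55 CPM. With oxygen alone its ependymal mean (71.97 CPM) lay below the oligodendrocyte mean (75.5 CPM), and only after sevoflurane was the ependymal mean (248.5 CPM) above it (84.05 CPM). Igfbp5 had no single leading class among the 12: astrocytes (79.96 ± 19.2 CPM) and ependymal nuclei (70.7 ± 22.03 CPM) overlapped, and CA2 nuclei were lowest at 5.22 ± 1.06 CPM. Among classes with too few nuclei for a comparison, vascular leptomeningeal-like nuclei had a higher Igfbp5 mean (163 CPM, range 37.1 to 289 CPM, 519 UMIs). Their libraries overlapped those of astrocytes (62.3 to 103 CPM). Pericyte or smooth muscle-like nuclei had a higher Igf2r mean (111 CPM, range 58.4 to 161 CPM, 57 UMIs). Their libraries overlapped those of ependymal nuclei (75.9 to 97.2 CPM). These values are all without the library normalisation.

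**Figure D1:**
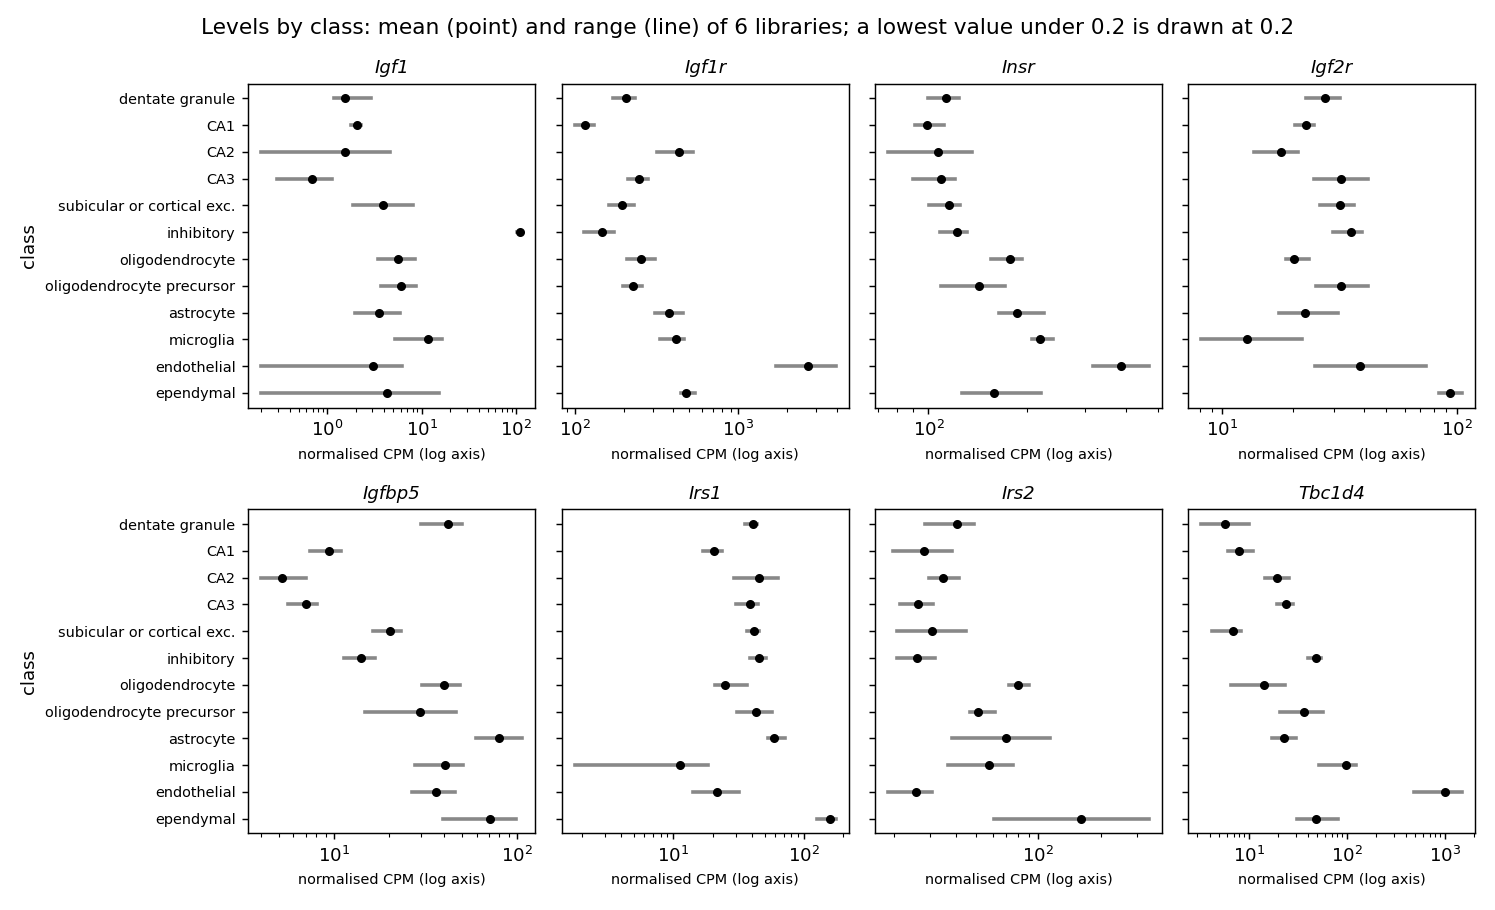
Normalised CPM (log axis) of each of the 8 genes in the 12 classes, where points are means and lines the range of the 6 libraries (a lowest value under 0.2 is drawn at 0.2). The endothelial class stands apart for Igf1r (1711 to 3949 CPM) and Tbc1d4 (484 to 1511 CPM), and the inhibitory class for Igf1 (102.5 to 116 CPM).

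Igf1, the ligand, was highest in inhibitory neurons among the 12 classes. It reached 104, 107 and 115 CPM in the oxygen libraries and 102.5, 112 and 116 CPM in the sevoflurane libraries, and the groups overlapped. The fitted log2 fold change (sevoflurane over oxygen in all that follows) was 0.02 with a standard error (SE) of 0.08. The class next in order, microglia, held 11.6 ± 4.33 CPM (SD, n = 6) from 40 UMIs, and in every library the inhibitory level was at least 6.38 times the microglial one. Among classes with too few nuclei for a comparison, vascular leptomeningeal-like nuclei held more Igf1 than microglia (24.4 against 11.1 CPM without the library normalisation, the former from 55 UMIs). After thinning to 2000 UMIs, 16.7% of inhibitory nuclei held an Igf1 UMI, against 0.346% of dentate granule nuclei. Without thinning the shares were 37.6% and 1.17%, with library medians of 7573 to 10350.5 UMIs in inhibitory and 6306 to 7938 UMIs in dentate granule nuclei. Thinning left out 13 inhibitory nuclei of the oxygen and 22 of the sevoflurane libraries, and 83 and 155 dentate granule nuclei.

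The inhibitory class joined 3 clusters that differed in Igf1. Values of single clusters, here and in later paragraphs, are counts per summed UMIs on the CPM scale without the library normalisation. A cluster led by Adarb2, Dlx6os1 and Npas1 (881 nuclei, with markers of Cnr1 interneurons) held 255 CPM and ranged from 223 to 292 CPM over the 6 libraries. A cluster with Lamp5 interneuron markers (585 nuclei) held 78.4 CPM, and a cluster with Pvalb interneuron markers (1635 nuclei) 45.5 CPM, with ranges of 53.3 to 120.5 and 41.6 to 48.3 CPM. The libraries of the Adarb2-led cluster all lay above those of the other clusters. Igf1 was also among the 10 leading genes of that cluster, although genes of the pathway were left out when nuclei were clustered. Tbc1d4 had another order over the same clusters, at 69.2 CPM in the Pvalb-marked, 33.9 CPM in the Adarb2-led and 2.71 CPM in the Lamp5-marked cluster, the last from 14 UMIs. With finer clustering (resolution 2.0) Pvalb interneuron markers were found in a cluster of 844 and in a cluster of 793 nuclei. The former also had Elfn1, a listed marker of Sst (somatostatin) interneurons, among its 10 leading genes, and the latter was led by Btbd11. Npas1, a leading gene of the Adarb2-led cluster, is a listed marker of Vip (vasoactive intestinal peptide) interneurons, and no cluster was named for them at either resolution. The values of the Pvalb-marked and of the Adarb2-led cluster may thus join interneuron types.

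Igf1 also showed the lowest fold of any of the 8 genes, in subicular or cortical excitatory nuclei, where its level was low. The oxygen libraries held 5.94, 3.26 and 8.09 CPM and the sevoflurane libraries 1.89, 1.87 and 2.38 CPM, with no overlap and a log2 fold of -1.47 (SE 0.34), which was not called by edgeR. Of the 8 clusters of this class, 1 supplied 140 of its 241 Igf1 UMIs (58.1%), and that cluster numbered 88, 75 and 181 nuclei in the oxygen libraries and 113, 21 and 90 in the sevoflurane libraries. Within it, Igf1 stood at 17.5, 29.3 and 28.85 CPM with oxygen, from 19, 29 and 66 UMIs. After sevoflurane it stood at 3.63, 15.4 and 14.4 CPM, from 5, 3 and 18 UMIs. These groups did not overlap either, but the nearest values, 15.4 and 17.5 CPM, rest on 3 and 19 UMIs. Another fit used the 6 of the class's 8 clusters that held at least 10 nuclei in every library. Each cluster had the same weight in every library, its share of their summed UMIs, and the reweighted counts were rounded. The fold was then -1.18 and was called. Igf1 passed the filter on low counts in 5 of the 12 classes and was called in none of them by edgeR (1 at an unadjusted p under 0.05), and in 1 with DESeq2.

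Igf1r, the IGF1 receptor, was lower after sevoflurane in the neuron classes and in endothelial and oligodendrocyte nuclei. In dentate granule neurons it stood at 233, 231 and 229.9 CPM with oxygen and at 170.5, 181 and 182 CPM after sevoflurane, a log2 fold of -0.38 (SE 0.06). In CA2 neurons it stood at 499.7, 523 and 531 CPM with oxygen and at 319, 374 and 350.1 CPM after sevoflurane, a fold of -0.58 (SE 0.11). In inhibitory neurons it stood at 173, 173 and 161 CPM with oxygen and at 113, 122 and 131 CPM after sevoflurane, a fold of -0.47 (SE 0.08). In each of these classes all 3 sevoflurane libraries lay below all 3 oxygen libraries.

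CA1, CA3 and subicular or cortical neurons had the same arrangement with smaller folds. CA1 neurons held 130.2, 131 and 125 CPM with oxygen and 99.5, 104 and 105 CPM after sevoflurane (-0.32, SE 0.07). CA3 neurons held 278, 281 and 262 CPM with oxygen and 211, 216.5 and 223 CPM after sevoflurane (-0.34, SE 0.07). Subicular or cortical neurons held 212.5, 229.9 and 211 CPM with oxygen and 162, 168 and 176 CPM after sevoflurane (-0.37, SE 0.07). A gene was called when edgeR's adjusted p was under 0.05, and Igf1r was called lower in 5 of the 6 neuron classes, all but the subicular or cortical one. Of all genes tested, 3.17% were called lower in dentate granule, 1.57% in CA1, 0.269% in CA2, 1.45% in CA3, 1.25% in inhibitory and 0.691% in subicular or cortical neurons. The choice of the gene used this comparison, so nothing is read from the count. With 1 library left out, Igf1r was called lower in 1 neuron class (without oxygen 2), in 2 (without oxygen 3 or without sevoflurane 3) or in 3 (without oxygen 1, sevoflurane 1 or sevoflurane 2). With finer clustering (resolution 2.0) the CA1 fold was -0.29 and not called, and the subicular or cortical fold was -0.38 and called. In inhibitory nuclei the class's own 8 markers were also lower after sevoflurane (9544 to 10864 CPM summed, against 11232 to 13183 with oxygen), and in CA3 nuclei the class's own 10 markers were (2644 to 2788 CPM, against 2998 to 3058). In CA2 nuclei the 9 CA1 markers were higher after sevoflurane (315 to 406 CPM, against 185 to 234), as were the 9 astrocyte markers (293 to 359 CPM, against 235 to 281). The part of these markers in the Igf1r values was not tested. At the finer resolution the dentate granule nuclei of the groups sat mostly in different clusters. A cluster led by Dsp and Lgr6 held 368, 186 and 342 nuclei of the oxygen and 1608, 1585 and 893 of the sevoflurane libraries, and a cluster led by Trpc6 and Glis3 655, 1717 and 956 of the oxygen and 457, 245 and 698 of the sevoflurane libraries.

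Outside the neurons the sign of the Igf1r fold differed between classes. Oligodendrocytes held 294, 311 and 289.9 CPM with oxygen and 212, 214 and 208 CPM after sevoflurane (-0.50, SE 0.11). Endothelial nuclei held 3949, 3037 and 3089 CPM with oxygen and 1711, 1948 and 2223 CPM after sevoflurane (-0.77, SE 0.18). Both were called, where 0.747% of genes tested in oligodendrocytes and 1.61% in endothelial nuclei were called lower, and in both the groups did not overlap. Microglia went the other way without a call, from 374, 417 and 334 CPM to 458, 431 and 464 CPM (0.26, SE 0.15), again without overlap. Astrocytes (0.30, SE 0.14), oligodendrocyte precursors (-0.04, SE 0.13) and ependymal nuclei (0.00, SE 0.18) had overlapping groups.

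Other markers moved in these classes too. The 9 oligodendrocyte markers summed to 12880 to 13416 CPM with oxygen and 10133 to 12383 CPM after sevoflurane in oligodendrocytes, and the 9 endothelial markers to 12028 to 13425 and 10578 to 11848 CPM in endothelial nuclei. In endothelial nuclei 8 vascular leptomeningeal markers summed to 174 to 259 CPM with oxygen and 96.2 to 139 CPM after sevoflurane, and 8 choroid plexus markers to 89.7 to 704 and 13.2 to 25.6 CPM. In microglia 7 border macrophage markers summed to 515 to 632 CPM with oxygen and 5.95 to 267 CPM after sevoflurane. In oligodendrocytes the 8 choroid plexus markers summed to 224 to 1270.0 CPM with oxygen and 24.55 to 36.9 CPM after sevoflurane. The endothelial cluster also passed 8 pericyte or smooth muscle markers. At resolution 2.0 endothelial nuclei fell into 2 clusters, which bears on every endothelial value given here. A cluster led by Flt1 held 120, 54 and 78 nuclei of the oxygen and 31, 91 and 148 of the sevoflurane libraries. A cluster led by Rgs5, a pericyte marker, held 48, 41 and 34 of the oxygen and 30, 47 and 43 of the sevoflurane libraries. The part of these markers and clusters in the Igf1r values was not tested. The oligodendrocyte call ended with any 1 library left out, at folds of -0.47 to -0.52. The endothelial call ended without oxygen 1 (-0.64), oxygen 3 (-0.83), sevoflurane 1 (-0.68) or sevoflurane 2 (-0.76), and with the stricter nuclei filter (-0.72), which left 255 of 765 endothelial nuclei.

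**Figure D2:**
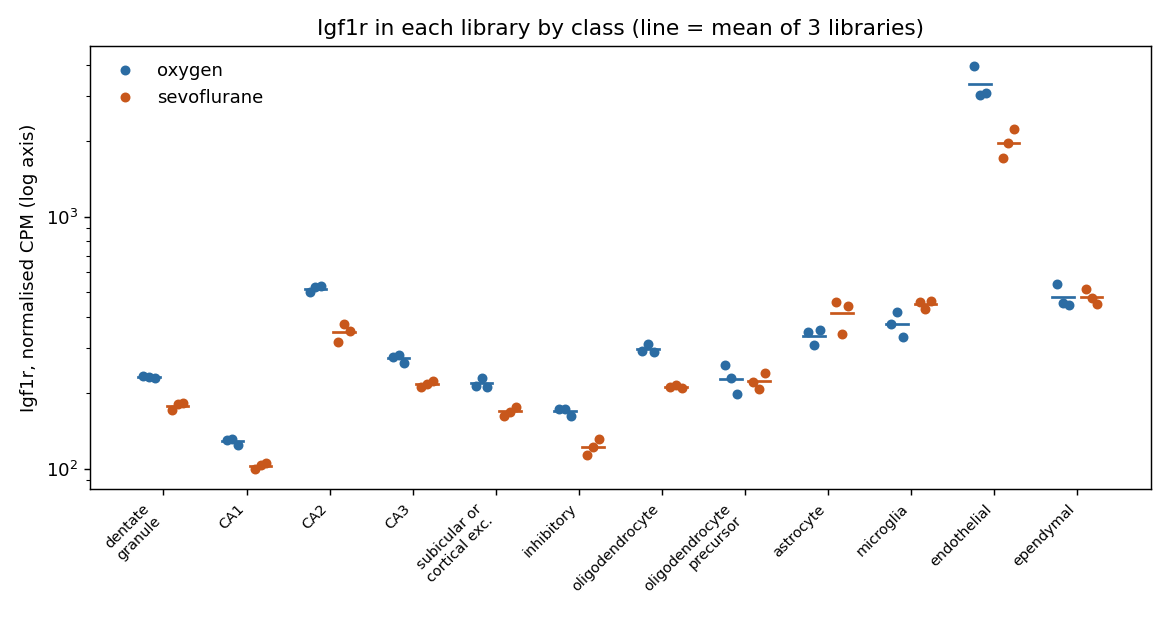
Normalised CPM of Igf1r (log axis) in each library, with a line for the mean of 3 libraries, in the 12 classes. The sevoflurane libraries lie below the oxygen libraries in all 6 neuron classes, in oligodendrocytes and in endothelial nuclei, and above them in microglia.

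Igf1r (ENSMUSG00000005533) spans 281 kb of chromosome 7 on mm10, from 67952827 to 68233668 on the plus strand, and is the longest of the 8 genes. The rank correlation of fold and span over genes, which are not independent replicates, was below 0 in every class. It ran from -0.028 in endothelial nuclei, where there was almost no trend, to -0.331 in oligodendrocyte precursors. In dentate granule neurons it was -0.249. With a correction for span, fitted per library over all genes, the Igf1r fold was -0.21 (SE 0.05) in dentate granule, -0.18 in CA1 and CA3, -0.46 in CA2, -0.31 in inhibitory, -0.20 in subicular or cortical neurons and -0.33 in oligodendrocytes, and was called in none of them. The endothelial fold was -0.74 (SE 0.17) with the correction and stayed called. In microglia and astrocytes the corrected folds were 0.41 and 0.42, and in oligodendrocyte precursors and ependymal nuclei 0.13 and 0.24, none of them called. Over all nuclei summed, the fold was -0.40 (SE 0.08), called, where 1.23% of genes tested were called lower, and -0.24 with the correction, not called. This call also ended with any 1 library left out, at folds of -0.34 to -0.45.

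**Figure D3:**
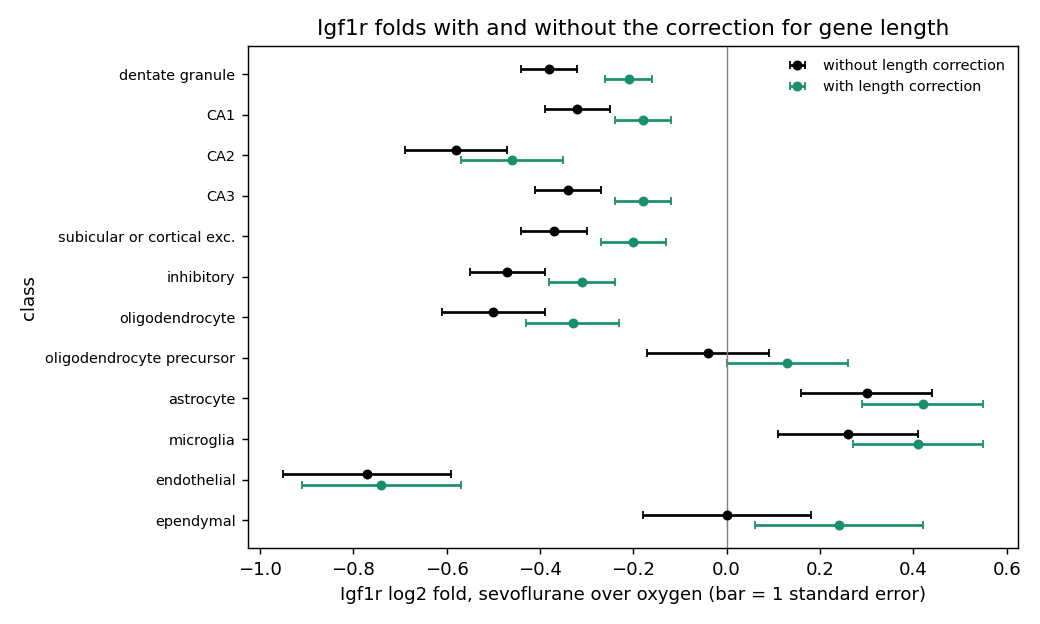
Log2 fold of Igf1r, sevoflurane over oxygen, in the 12 classes with and without the correction for gene span, with bars of 1 SE. The correction moved the dentate granule fold from -0.38 to -0.21 and the endothelial fold from -0.77 to -0.74.

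Insr, which encodes the insulin receptor (158 kb, chromosome 8, 3122061 to 3279617, minus strand), was called in 1 of the 12 classes. Dentate granule neurons held 124, 124 and 121.5 CPM with oxygen and 105, 99.7 and 105.5 CPM after sevoflurane, a called log2 fold of -0.25 (SE 0.06) that was -0.14 and not called with the correction for span. The groups also stood apart in CA3 neurons (-0.22, SE 0.09) and in endothelial nuclei, where Insr went from 442, 394 and 471 CPM to 318, 361 and 329 CPM (-0.37, SE 0.17), without calls. In the remaining 9 classes the groups overlapped, with folds of -0.24 to 0.20. The dentate granule call ended when any 1 library but sevoflurane 3 was left out, at folds of -0.23 (without sevoflurane 2) to -0.27 (without sevoflurane 1 or oxygen 3), and -0.25 without oxygen 1 or oxygen 2.

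Igf2r, the receptor that clears IGF2, was called in none of the 11 classes in which it was tested by edgeR (1 at an unadjusted p under 0.05, and 0 with DESeq2). Its folds ran from -0.34 to 0.27. In CA3 neurons the groups did not overlap: 41.7, 32.6 and 33.4 CPM with oxygen and 24.7, 29.9 and 30.3 CPM after sevoflurane (-0.34, SE 0.13). Igf2r (chromosome 17, 12682406 to 12769664, minus strand) overlaps Airn, a noncoding RNA read from the other strand that is known for silencing Igf2r on the paternal chromosome. Whether counting used the strand is not given in the sources used here. Airn, looked at after the values were seen, fell in CA3 neurons, from 126, 119.7 and 108 CPM with oxygen to 63.1, 87.2 and 87.3 CPM after sevoflurane (log2 fold -0.58, SE 0.12, edgeR adjusted p 0.0413), where 1.45% of genes were called lower.

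Igfbp5 (chromosome 1, 72857932 to 72874884, minus strand) was called in none of its 11 classes by edgeR (1 at an unadjusted p under 0.05, and 0 with DESeq2), and its groups overlapped in all of them. Its lowest fold was -0.44 (SE 0.16) in astrocytes, where oxygen libraries held 101, 69.1 and 107 CPM and sevoflurane libraries 69.6, 59.6 and 73.7 CPM.

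Of the genes of the docking proteins, Irs2 was higher after sevoflurane in CA1 neurons, astrocytes and ependymal nuclei. CA1 neurons held 22.99, 19.8 and 21.5 CPM with oxygen and 32.2, 38.1 and 33.6 CPM after sevoflurane, a log2 fold of 0.70 (SE 0.11). Astrocytes held 50.8, 38.1 and 48.6 CPM with oxygen and 65.5, 114 and 101 CPM after sevoflurane, a fold of 1.07 (SE 0.18). Ependymal nuclei held 86.9, 68.1 and 60.9 CPM with oxygen and 344, 216 and 186 CPM after sevoflurane, a fold of 1.79 (SE 0.26). The groups did not overlap in these 3 classes, and all 3 were called, where 0.542%, 0.926% and 0.314% of genes tested were called higher. Dentate granule (0.35, SE 0.13) and subicular or cortical neurons (0.52, SE 0.16) also had no overlap, without calls, and 11 of the 12 folds were above 0.

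The Irs2 calls stayed with the correction for span, at folds of 0.67 in CA1, 1.05 in astrocytes and 1.73 in ependymal nuclei. The CA1 call ended without oxygen 2 (0.63) or oxygen 3 (0.69), the astrocyte call without oxygen 2 (0.94), and the ependymal call with the stricter nuclei filter (2.14), which left 203 of 588 nuclei. In astrocytes the 9 astrocyte markers summed to 13030 to 13159 CPM with oxygen and 10537 to 12709 CPM after sevoflurane, and in ependymal nuclei the 8 ependymal markers summed to 5595 to 6305 and 6337 to 8416 CPM. Their part in the Irs2 values was not tested. At the finer resolution most astrocyte nuclei of the groups sat in different clusters, which bears on every astrocyte value given here. A cluster led by Gm6145 and Aldh1l1 held 206, 112 and 118 nuclei of the oxygen and 348, 710 and 734 of the sevoflurane libraries, and a cluster led by Gli3 and Mertk 489, 695 and 559 of the oxygen and 86, 35 and 42 of the sevoflurane libraries. Irs2 (ENSMUSG00000038894, 23.8 kb, chromosome 8, 10984681 to 11008458, minus strand) overlaps 9530052E02Rik on the other strand. In dentate granule neurons 9530052E02Rik, looked at after the values were seen, rose from 43.2, 42.1 and 44.3 CPM to 53.0, 53.85 and 53.6 CPM (log2 fold 0.31, SE 0.07, edgeR adjusted p 0.038), where 1.45% of genes were called higher. Its folds in CA1 neurons (-0.17, SE 0.14) and astrocytes (0.87, SE 0.48) did not pass the test.

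Dentate granule neurons formed 2 clusters. The smaller, led by Fosb and with Arc and Inhba among its 10 leading genes, all known to be induced by neuronal activity, numbered 94 nuclei, 1, 14 and 12 of them in the oxygen and 31, 22 and 14 in the sevoflurane libraries. Its Irs2 rested on 98 UMIs in all. It stood at 0, 46.1 and 40.65 CPM with oxygen, from 0, 7 and 5 UMIs, and at 177, 181 and 68.5 CPM after sevoflurane, from 50, 27 and 9 UMIs. In the larger cluster of 9797 nuclei, Irs2 stood at 36.7, 26.5 and 38.6 CPM with oxygen and at 43.7, 49.7 and 44.05 CPM after sevoflurane, with no overlap. The oxygen libraries of the small cluster lay within or below the range of the larger cluster's libraries, and its sevoflurane libraries above them. This order rests on few UMIs, and the lowest value on 1 nucleus.

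Irs1 was called in none of the 11 classes in which edgeR tested it (1 at an unadjusted p under 0.05, and 0 with DESeq2). Its folds ran from -0.36 to 0.13, and in ependymal nuclei, its highest class, it stood at 160.5, 174 and 125 CPM with oxygen and at 150.0, 170.2 and 168.5 CPM after sevoflurane. The groups stood apart in inhibitory neurons only, at 47.6, 47.9 and 51.2 CPM with oxygen and 43.3, 42.6 and 38.3 CPM after sevoflurane (-0.24, SE 0.10).

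**Figure D4:**
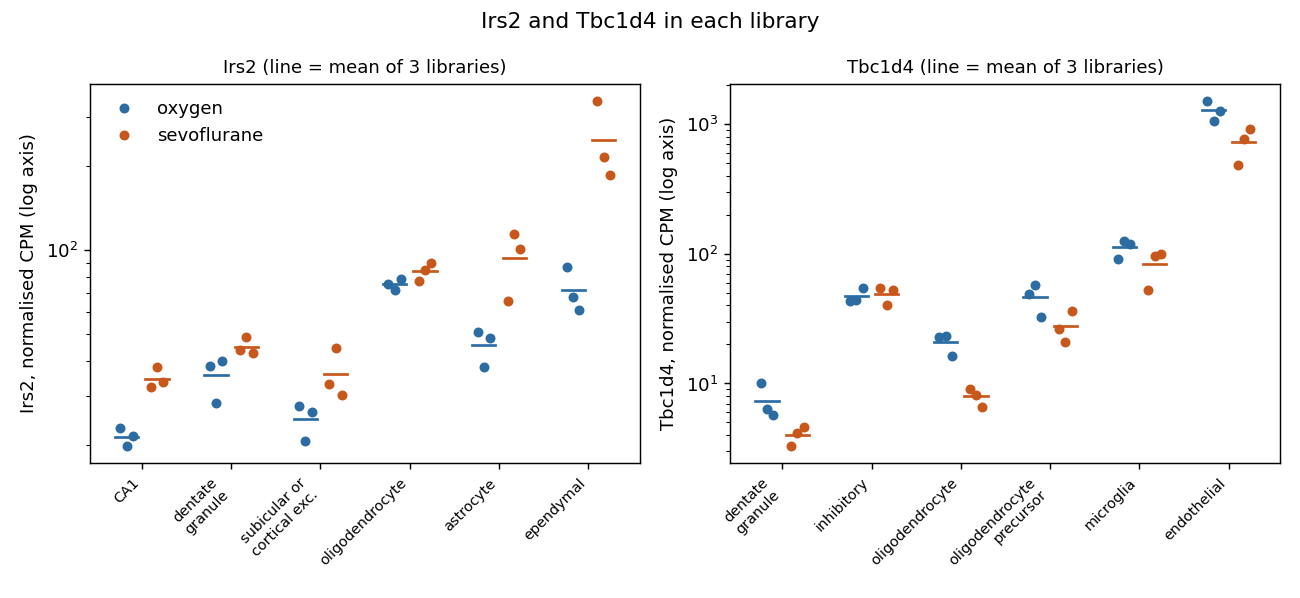
Normalised CPM (log axis) of Irs2 and of Tbc1d4 in each library in 6 classes each, with a line for the mean of 3 libraries. Irs2 is higher in all 3 sevoflurane libraries in CA1, dentate granule, subicular or cortical, astrocyte and ependymal nuclei. Tbc1d4 is lower in all 3 sevoflurane libraries in dentate granule, oligodendrocyte and endothelial nuclei.

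The 250 bases before the RefSeq starts of the genes the results turn on are printed here on GRCm38.p6, each in the direction of its gene. Irs1 and Irs2 hold the same short motifs there, at different positions and spacings. Capitals mark matches to 1 of 4 motifs searched on both strands: the E-box CACGTG, the insulin response core CAAAACA (read TGTTTTG on the other strand), the cyclic AMP response element TGACGTCA and the FOXO core GTAAACA. Irs2 (chr8:11008930-11009179, minus strand), Irs1 (chr1:82291440-82291689, minus strand), Igf1r (chr7:67952007-67952256, plus strand) and Tbc1d4 (chr14:101609192-101609441, minus strand) read as follows.
Irs2: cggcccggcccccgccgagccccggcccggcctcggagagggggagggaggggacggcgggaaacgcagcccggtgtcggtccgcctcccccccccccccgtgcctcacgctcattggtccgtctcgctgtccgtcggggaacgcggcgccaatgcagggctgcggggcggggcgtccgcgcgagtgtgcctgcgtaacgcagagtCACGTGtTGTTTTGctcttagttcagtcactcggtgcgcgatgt
Irs1: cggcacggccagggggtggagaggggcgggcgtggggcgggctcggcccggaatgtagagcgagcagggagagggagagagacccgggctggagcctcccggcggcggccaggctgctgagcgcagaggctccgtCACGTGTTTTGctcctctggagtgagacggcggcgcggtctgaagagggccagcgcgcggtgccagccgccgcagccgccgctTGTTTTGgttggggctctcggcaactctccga
Igf1r: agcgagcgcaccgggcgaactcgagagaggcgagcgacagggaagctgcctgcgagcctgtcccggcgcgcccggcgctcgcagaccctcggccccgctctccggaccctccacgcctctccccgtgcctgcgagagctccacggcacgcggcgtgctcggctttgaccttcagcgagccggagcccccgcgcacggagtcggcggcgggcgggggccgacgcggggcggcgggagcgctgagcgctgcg
Tbc1d4: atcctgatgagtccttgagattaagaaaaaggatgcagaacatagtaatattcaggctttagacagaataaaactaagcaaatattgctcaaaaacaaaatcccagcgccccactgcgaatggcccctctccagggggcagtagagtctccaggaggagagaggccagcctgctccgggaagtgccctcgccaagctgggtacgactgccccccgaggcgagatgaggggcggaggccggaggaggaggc
Distances are from the RefSeq starts, which for Irs2, Irs1, Igf1r and Igf2r lie outside the spans of these genes on mm10. Irs2 holds an E-box whose last base lies 39 bases before the start and, after 1 base, TGTTTTG, which covers bases 37 to 31 before the start. Irs1 holds an E-box at bases 115 to 110 before the start that overlaps the first TGTTTTG, at bases 111 to 105, and a further TGTTTTG at bases 32 to 26. Of the 32851 windows of this length in the RefSeq table, 6.02% held the E-box, 5.56% the insulin response core and 0.295% both. The CRE letters were in 1.55% and the FOXO core letters in 3.17% of windows. Of the 7 genes with a window, Igf2r also held E-boxes, 2 of them, and the windows of Igf1, Igf1r, Igfbp5 and Tbc1d4 held none of the 4 motifs. G and C made up 77.6% of the Igf1r window, 72.8% of Irs2, 72.4% of Irs1 and 54.8% of Tbc1d4. The gene without a window in the table was Insr.

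Tbc1d4, the brake on glucose transporter vesicles (167 kb, chromosome 14, 101442360 to 101609191, minus strand, overlapping Gm34417 on its own strand), was lower after sevoflurane in oligodendrocytes and endothelial nuclei. Oligodendrocytes held 22.9, 23.2 and 16.4 CPM with oxygen and 9.11, 8.13 and 6.59 CPM after sevoflurane, a log2 fold of -1.39 (SE 0.22) resting on 228 UMIs. Endothelial nuclei held 1511, 1058 and 1254 CPM with oxygen and 484, 770.3 and 918 CPM after sevoflurane, a fold of -0.80 (SE 0.21). Both were called and had no overlap, and both stayed called with the correction for span (-1.26 and -0.74). Dentate granule neurons, at a low level, went from 10.0, 6.38 and 5.70 CPM to 3.29, 4.15 and 4.58 CPM (-0.87, SE 0.23), and ependymal nuclei from 60.2, 81.7 and 42.6 CPM to 38.8, 38.4 and 31.4 CPM (-0.76, SE 0.32), without overlap and without calls.

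Tbc1d4 was not lower in all classes. Inhibitory neurons held 43.3, 44.2 and 54.9 CPM with oxygen and 54.3, 40.6 and 52.96 CPM after sevoflurane (0.06, SE 0.13), and CA1 (0.39, SE 0.19) and CA2 neurons (0.25, SE 0.31) had overlapping groups. The 9 endothelial markers, the class in which Tbc1d4 is highest, summed to 31.7 to 61.3 CPM with oxygen and to 25.8 to 62.1 CPM after sevoflurane in oligodendrocytes. The 8 choroid plexus markers (224 to 1270.0 and 24.55 to 36.9 CPM) and the 9 oligodendrocyte markers (12880 to 13416 and 10133 to 12383 CPM) were lower there after sevoflurane. Choroid plexus-like nuclei, found in oxygen libraries only, held Tbc1d4 at 40.2 CPM and oligodendrocytes at 14.1 CPM, both without the library normalisation. The part of these markers in the Tbc1d4 value was not tested. The oligodendrocyte call ended without oxygen 2 (-1.32) and stayed with any other library left out (-1.28 to -1.52), and DESeq2 gave no adjusted p there. The endothelial call ended without oxygen 1 (-0.66), oxygen 3 (-0.81), sevoflurane 1 (-0.59) or sevoflurane 2 (-0.84), with doublets kept (-0.74) and with the stricter nuclei filter (-0.59).

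Counted over the 12 classes, 86 of the 96 pairs of gene and class passed the filter on low counts. Of these, 10 were called lower and 3 higher, where 1.24% and 0.526% of all such pairs over all genes were called. In 18 pairs all sevoflurane libraries lay below all oxygen libraries and in 6 they lay above, where 10.4% and 9.0% of all pairs did. Since the genes were chosen on this comparison, nothing is read from these counts. With the correction for span, 3 pairs were called lower (Tbc1d4 in oligodendrocytes and in endothelial nuclei, and Igf1r in endothelial nuclei) and 3 higher (Irs2). Over all nuclei summed, Igf1r alone was called among the 8, and the other folds ran from -0.51 (Tbc1d4, SE 0.20) to 0.45 (Irs2, SE 0.11).

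**Figure D5:**
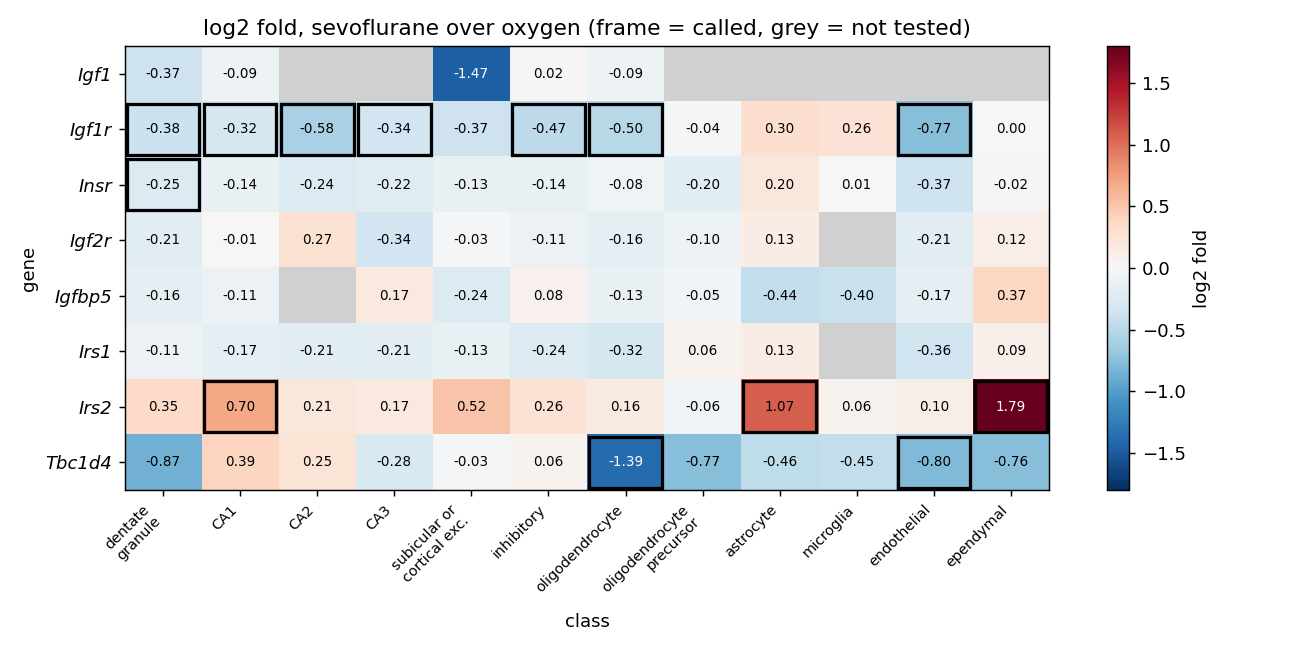
Log2 folds, sevoflurane over oxygen, of the 8 genes in the 12 classes, with frames on called pairs and grey where a gene did not pass the filter. The folds run from -1.47 (Igf1 in subicular or cortical neurons) to 1.79 (Irs2 in ependymal nuclei).

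The other genes of the pathway, 91 in all, were taken from a list of ligands, receptors, binding proteins and their proteases, adaptors, kinases, phosphatases, FOXO factors and their targets. They gave 791 tested pairs of gene and class over 83 genes, of which 6 were called lower and 4 higher (edgeR, adjusted over all genes of a class). These are 0.759% and 0.506% of the pairs, beside 1.24% and 0.526% of all pairs. The median log2 fold of the 791 pairs was -0.03, beside class medians over all genes of 0.00 to 0.02. At an unadjusted p under 0.05 edgeR gave 117 pairs, and DESeq2 called 21. The shares of all pairs at these settings are not given here, so neither count can be read as more or fewer than usual. The list was chosen with earlier results of these data known, so these counts and the calls that follow are a description.

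Astrocytes, whose oxygen and sevoflurane nuclei sat mostly in different clusters at the finer resolution, held 5 of the 10 calls. Pdk4, which encodes a kinase that shuts pyruvate out of mitochondrial oxidation and is known as a FOXO target, rose from 25.9, 25.5 and 24.3 CPM to 59.96, 72.2 and 62.8 CPM (log2 fold 1.37, SE 0.15, edgeR adjusted p 0.000201). Sesn3, a FOXO target that encodes a stress-induced regulator of mTOR complexes, rose from 141 ± 13.6 to 280.5 ± 65.2 CPM (SD, n = 3, fold 0.99, SE 0.15, edgeR adjusted p 0.00282). Gab2, an adaptor for receptor tyrosine kinases, rose from 121 ± 6.03 to 222 ± 62.3 CPM (fold 0.89, SE 0.17, edgeR adjusted p 0.0129). Igfbp2, an IGF-binding protein gene, fell from 22.3 ± 1.33 to 9.79 ± 1.94 CPM (fold -1.23, SE 0.22, edgeR adjusted p 0.00676). Shc3, a neuronal relative of the adaptor SHC1, fell from 158 ± 14.9 to 67.98 ± 13.7 CPM (fold -1.24, SE 0.15, edgeR adjusted p 0.000252). In all 5 the groups did not overlap, and all 5 stayed called with the correction for span. In astrocytes 0.926% of genes tested were called higher and 1.22% lower. The Gab2 call ended without oxygen 1 (0.85), oxygen 2 (0.88), oxygen 3 (0.92) or sevoflurane 2 (0.81), and the other 4 stayed called whichever library was left out.

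Shc3 fell in inhibitory neurons as well, from 146 ± 5.18 to 102 ± 12.8 CPM (SD, n = 3, fold -0.51, SE 0.09, edgeR adjusted p 0.012), a call that ended without oxygen 2 (-0.48). In endothelial nuclei Grb14, an adaptor that restrains the insulin receptor, fell from 263, 255 and 160 CPM to 70.7, 93.7 and 72.5 CPM (fold -1.52, SE 0.21, edgeR adjusted p 0.000506). Sgk1, a kinase related to AKT, rose there from 93.5, 93.3 and 88.2 CPM to 272, 203 and 163 CPM (fold 1.16, SE 0.20, edgeR adjusted p 0.00198), where 1.53% of genes were called higher. Both endothelial calls ended with the stricter nuclei filter (-0.96 and 0.59), and stayed whichever library was left out. In dentate granule neurons Pappa, a protease that frees IGFs from their binding proteins, fell from 10.3, 5.85 and 6.20 CPM to 2.91, 2.61 and 2.97 CPM (fold -1.38, SE 0.24, edgeR adjusted p 0.0122). Phlpp2, a phosphatase of AKT, fell there from 68.4 ± 4.26 to 53.05 ± 2.14 CPM (SD, n = 3, fold -0.37, SE 0.08, edgeR adjusted p 0.0239), a call that ended without sevoflurane 2 (-0.36), oxygen 1 (-0.37), oxygen 2 (-0.32) or oxygen 3 (-0.41).

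By role, adaptors held 1 call higher and 3 lower of 103 pairs (22 at edgeR's unadjusted p under 0.05, 9 called by DESeq2). FOXO targets held 2 higher of 78 (12 and 4 at these settings) and kinases 1 higher of 95 (12 and 3). Phosphatases held 1 lower of 84 (12 and 2), binding proteins 1 lower of 46 (7 and 1) and their proteases 1 lower of 16 (5 and 1). The shares of all pairs at these settings are not given here, and nothing is read from the counts. In the other roles that gave tested pairs edgeR called 0 of them: phosphoinositide 3-kinase subunits (67 pairs, 8 at an unadjusted p under 0.05, 0 with DESeq2), mTOR complexes and their regulators (143, 19 and 1), FOXO factors (34, 5 and 0), glucose uptake (70, 6 and 0), feedback and degradation (50, 5 and 0) and ligands (5, 4 and 0). The other receptor gene of the list, Insrr, passed the filter in 0 classes. Over all nuclei summed, Shc3 fell (-0.44, SE 0.07, edgeR adjusted p 0.0298) and Igfbpl1 rose (1.81, SE 0.32, edgeR adjusted p 0.0423), where 1.23% and 0.702% of genes tested were called. Igfbpl1 stood at 0.928, 1.15 and 0.897 CPM with oxygen and at 4.42, 4.18 and 1.93 CPM after sevoflurane. Septal or striatal inhibitory-like nuclei numbered 12, 14 and 17 in the oxygen libraries and 167, 217 and 183 in the sevoflurane libraries, and the part of these numbers in the Igfbpl1 value was not tested. Both calls ended with the correction for span (-0.35 and 1.78), under which another gene, Tbc1d1, a relative of Tbc1d4 named after its values were seen, was called instead (0.27, SE 0.04, edgeR adjusted p 0.0432). Both also ended with most libraries left out, Shc3 staying called without sevoflurane 1 and Igfbpl1 without sevoflurane 3.

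Genes with levels most like those of Igf1r, Tbc1d4 and Igf1 over the classes were listed by Pearson's r of log2 CPM over 24 values (12 classes in 2 groups), which share their libraries. For Igf1r they were Max (0.900), Csnk1g2 (0.890), Mier1 (0.882), Dusp3 (0.882) and Ifnar1 (0.881), among 5623 genes tested in every class. For Tbc1d4 they were Serpinb9 (0.926), Crtap (0.914), Slain2 (0.913), Ddx21 (0.904) and Ets1 (0.902), and for Igf1 Edaradd (0.937), Gm14204 (0.932), Dlx6os1 (0.926), Dlx6 (0.916) and 4930488N15Rik (0.915), among 17923 genes. The lists depend on the measure: ranked by Spearman's rho, 1 of the 15 genes was kept.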

How the data were processed

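Nuclei of frozen hippocampi were profiled with 10x Genomics 3' v3.1 chemistry, per the labels' protocols. The submitters' processing notes name fastp, Cell Ranger 7.1.0 and mm10. Settings for annotation, introns and strand were not given in the sources used here. Values were deposited as raw UMI counts per gene and barcode, per the file headers, with 56334621 to 72636984 counts in a library.

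Barcodes were kept from 500 UMIs and 300 genes upward where mitochondrial UMIs made up no more than 5% (53287 of 53824), and 1270 called doublets were removed. Doublet scores and 3000 variable genes, without genes of the pathway, came from scanpy 1.11.5. From these genes 40 components were computed with numpy 2.4.6, and 20 neighbours of each nucleus with scikit-learn 1.9.0. Nuclei were linked by their shared neighbours (Jaccard index, the common part of 2 neighbour sets, at least 0.0667). They were clustered with igraph 0.11.9 (Leiden by modularity, resolution 1.0). A cluster was named from at least 3 markers of a class: 32 of 45 clusters received 1 of 19 names. Counts were summed per library and class and tested with edgeR 4.0.16 (quasi-likelihood test, TMM, filterByExpr, Benjamini-Hochberg adjustment over all genes of a class, 3 libraries against 3) in R 4.3.3. The fits were tested on simulated data. The alternatives were RLE scaling, DESeq2 1.42.0, no filter, a block of the replicate number and a correction for gene span (mm10 annotation, alone and with the block). Further ones were stricter nuclei (at least 1000 UMIs, at most 1% mitochondrial), doublets kept, resolution 2.0, cluster weights held fixed over the libraries, fewer classes summed, and each library left out.

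The 8 genes and the lists were chosen with earlier results of these data known. The genes named beyond the 8 were, in each class, the up to 4 other pathway genes called with the smallest p in each direction, and the 5 genes of highest likeness to Igf1r, Tbc1d4 and Igf1. Likeness used log2 CPM with a prior count of 2. Promoter windows came from RefSeq (GRCm38.p6) by symbol, for 7 of the 8 genes. Precision is set by the UMIs behind a value and by the spread of 6 libraries.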

Additional observations from a re-analysis of the deposited data

Results flagged for a closer look

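The order of the oxygen and sevoflurane libraries for Igf1r differed between classes. In microglia-like nuclei all 3 sevoflurane libraries lay above all 3 oxygen libraries (log2 fold 0.26, SE 0.15, not called), while in 8 of the 12 classes all 3 lay below. Over all genes, 9.0% of pairs of gene and class stood apart with sevoflurane higher and 10.4% with sevoflurane lower. Border macrophage markers were lower after sevoflurane in the microglia class, and their part in this value was not tested. The difference between the classes was not tested. The correction for gene span left the microglial fold above 0, at 0.41 (SE 0.14).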

How the results depend on the processing

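None of the 30 single results for named genes changed direction under any alternative run. Of all 86 tested pairs of the 8 genes, 26 had a fold of the other sign under at least 1 alternative, 6 with the correction for span, and 0 of the 26 had been called. Igf1r was called lower in 5 neuron classes, in 0 with the correction for gene span, and in 1 to 3 with 1 library left out. Over the 8 genes, 10 pairs were called lower, 3 with the correction and 3 to 6 with 1 library left out; 3 were called higher, 1 to 3 with 1 library left out. For the other pathway genes, 6 pairs were called lower, 14 with DESeq2 and 20 without the filter on low counts. With cluster weights held fixed over the libraries 10 of their pairs were called lower, and with 1 library left out 4 to 10. Their 4 pairs called higher became 7 with DESeq2, 10 without the filter and 3 to 8 with 1 library left out. The shares of all genes called under these alternatives are not given here, so nothing is read from these counts. Over all nuclei summed, 1 of the 8 genes was called, 2 with DESeq2, 0 with the correction and 0 with any library left out. Of the others 2 were called, 1 with the correction (Tbc1d1, not among those 2) and 0 to 1 with a library left out. The Tbc1d4 fold in oligodendrocytes, -1.39, ran from -1.52 to -1.28 with 1 library left out; DESeq2 gave it no adjusted p and is left out for it. Spearman's rho kept 1 of the 15 genes most like Igf1r, Tbc1d4 and Igf1. The cause of these changes was not tested.

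Replicate numbers did not pair the libraries: same-numbered libraries' deviations correlated at -0.121 to 0.081, and in 0 of 13 sets was every pair over 0.1. With the replicate block, Igf1r was called lower in 2 neuron classes, and 4 pairs of the 8 genes were called lower; over all nuclei 0 of the 8 and 0 of the other genes were called. With the block and the span correction together, the counts were 0 neuron classes for Igf1r, 1 pair lower for the 8 genes, 9 pairs higher for the other genes, and 0 and 0 over all nuclei.

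Over these 30 results and 453 comparisons, 333 kept direction and side of the threshold, 108 lost a call and 12 gained one. Endothelial and ependymal values rest on 765 and 588 nuclei, of which the stricter filter kept 255 and 203, and Igf1 outside inhibitory neurons on few UMIs, such as 40 in microglia.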
